A study of Mus musculus with 8 samples.

Results

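The genes described here encode the proteins of the cytosolic ribosome. They were chosen by symbol alone, as protein-coding genes named Rpl or Rps with a number and at most a final a, l or x, together with Rplp0, Rplp1, Rplp2 and Rpsa. This gave 81 of the 21627 protein-coding genes on the chromosomes that the peak lists hold, 50 for the large subunit and 31 for the small subunit. The measured mark was H3K27ac, an acetylation of histone H3 known from active regulatory DNA, and the assay was ChIP-seq on CD8+ T cells taken from C57BL/6 mice (lymph node and spleen). All cells were stimulated with antibodies to CD3 and CD28. They were kept for 48 h with EnPGC-1, which the labels class among PIPs, or with the vehicle DMSO. There were 2 H3K27ac samples for EnPGC-1 and 2 for DMSO, beside 1 input sample for each treatment and 2 IgG samples from DMSO-treated cells. The deposited values are 1 peak list per treatment on mm10, so no spread between samples can be measured (nor do the labels say whether the paired samples came from separate animals), no test between treatments was made, and read depth is unknown.

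The cytosolic ribosome is built from a small subunit, which reads the mRNA, and a large subunit, which joins amino acids. Its protein genes are expressed in nearly all cells, and resting T cells are known to raise ribosome production after activation. Mammalian ribosomal protein mRNAs typically begin with a C followed by a run of pyrimidines, the terminal oligopyrimidine tract, through which mTOR signalling and Larp1 control their translation. The genes are short, host many small nucleolar RNAs in their introns and have many processed pseudogenes.

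Promoter sequences of RefSeq (GRCm38.p6, the coordinates of mm10) were matched for 61 of the 81 genes. A run of 5 or more C or T that begins with C within 10 bases of the start was found in 37 of the 61 (60.7%), against 31.5% of all 17273 genes with a start. The median length of the longest such tract was 8 bases in ribosomal protein genes, against 6 bases over all genes with one, and the longest had 20 bases. The sequences below run from 75 bases before the start through the first 25 bases of the transcript, on the strand of the gene, and the tract is in capitals. Rpl18, Rps10 and Rpl38 are shown for their large differences between the lists, and Rps27 because a DMSO interval alone lay over its start. Rps23 and Rpl24 are shown because neither list had an interval within 1 kb of their ends. Rps6 is shown as the substrate of the S6 kinases, and Rpl39 with Rpl39l as a pair of paralogs.
Rpl18: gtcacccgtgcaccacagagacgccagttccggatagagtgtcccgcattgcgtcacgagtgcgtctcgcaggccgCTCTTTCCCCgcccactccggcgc
Rps10: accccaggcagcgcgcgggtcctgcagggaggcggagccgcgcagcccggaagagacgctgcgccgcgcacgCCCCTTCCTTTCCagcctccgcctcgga
Rpl38: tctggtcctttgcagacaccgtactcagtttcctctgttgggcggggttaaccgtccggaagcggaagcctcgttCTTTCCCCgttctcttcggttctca
Rps27: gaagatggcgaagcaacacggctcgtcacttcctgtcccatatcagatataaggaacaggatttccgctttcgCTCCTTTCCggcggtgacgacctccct
Rps23: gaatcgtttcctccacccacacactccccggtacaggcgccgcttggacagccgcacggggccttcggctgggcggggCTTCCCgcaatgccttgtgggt
Rpl24: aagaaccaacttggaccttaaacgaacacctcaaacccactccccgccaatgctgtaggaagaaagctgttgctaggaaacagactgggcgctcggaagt
Rps6: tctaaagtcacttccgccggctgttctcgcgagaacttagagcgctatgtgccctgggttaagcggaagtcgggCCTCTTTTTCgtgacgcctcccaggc
Rpl39: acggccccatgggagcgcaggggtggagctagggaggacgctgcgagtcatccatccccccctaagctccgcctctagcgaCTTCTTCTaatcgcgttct
Rpl39l: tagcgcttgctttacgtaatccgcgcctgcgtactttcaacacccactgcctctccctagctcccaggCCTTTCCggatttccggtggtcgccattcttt
On mm10 the windows are chr7:45717996-45718095 (+ strand) for Rpl18, chr17:27635220-27635319 (- strand) for Rps10, chr11:114668505-114668604 (+ strand) for Rpl38 and chr3:90213624-90213723 (- strand) for Rps27. They are chr13:90923047-90923146 (+ strand) for Rps23, chr16:55966200-55966299 (+ strand) for Rpl24 and chr4:86857343-86857442 (- strand) for Rps6. They are chrX:37085198-37085297 (- strand) for Rpl39 and chr16:10170153-10170252 (+ strand) for Rpl39l. Rps10 had the longest tract of these, with 13 bases, and Rpl24 had none by this rule. The rule reads the most upstream RefSeq start, so a tract at a start placed elsewhere is not seen.

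Most ribosomal protein genes had a listed H3K27ac interval near a gene end in EnPGC-1-treated cells, and a minority had one in DMSO-treated cells. A gene is called marked when at least 1 bp of an interval lies within 1 kb of either end. The EnPGC-1 list marked 68 of 81 genes (84.0%, 95% exact binomial interval 74.1 to 91.2), against 72.8% of all protein-coding genes. The DMSO list marked 34 (42.0%, 31.1 to 53.5), against 41.6% of all protein-coding genes. Thus the DMSO share was near the background, while the background of the EnPGC-1 share lay just below its interval, which covers counting error only. When olfactory, vomeronasal and taste receptor genes were left out, the background was 77.4% for EnPGC-1, inside that interval, and 44.5% for DMSO. Both lists marked 32 genes (39.4% of all genes), the EnPGC-1 list alone 36 (33.4% of all genes), the DMSO list alone 2 (2.19%) and neither list 11 (25%). With the receptor genes left out, those background shares were 42.2%, 35.3%, 2.29% and 20.3% in the same order. Where DMSO intervals were lacking (47 genes), 76.6% carried one from EnPGC-1, against 57.2% of all such genes and 63.5% with the receptor genes left out.

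The EnPGC-1 list is far longer than the DMSO list, with 253423 distinct intervals over 165 Mb against 81522 intervals over 41.3 Mb, and its length touches every count here. With both lists held to 81522 intervals by score, each marked 34 of the 81 genes. Then 19 genes carried EnPGC-1 intervals alone, 19 DMSO intervals alone and 15 both, so the excess of EnPGC-1 ended. Of all protein-coding genes, 40.5% with EnPGC-1 and 41.6% with DMSO were marked in that setting. With each list held to intervals at or above its own median score, 47 genes (58.0%) carried EnPGC-1 intervals and 22 (27.2%) DMSO intervals. Of all genes, 52.5% did with EnPGC-1 and 28.8% with DMSO, so both shares were near the background. As to the cells themselves, with all intervals kept, 6 of 7 CD8 T cell marker genes that matched were marked with EnPGC-1. This was 85.7%, against 72.8% of all genes. With DMSO 3 of them were marked (42.9%, against 41.6% of all genes). Cd8a had EnPGC-1 intervals alone within 1 kb and Cd3d none from either list. Of 10 markers of B cells, myeloid cells, CD4 T cells and NK cells, 5 were marked in each list, Cd79a, Cd79b, Lyz2 and Csf1r in both. Their part in the results below was not tested.

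Of the 68 genes with EnPGC-1 intervals within 1 kb, 34 had 1 interval, 19 had 2, 11 had 3 and 4 had 4, while of the 34 with DMSO intervals 28 had 1, 5 had 2 and 1 had 3. The genes lie on many chromosomes, and chromosome 7 holds 14 of them, all with EnPGC-1 intervals and 8 with DMSO intervals. On chromosome 16, 0 of 3 genes were marked by either list. No share over all genes of chromosomes 7 or 16 is given beside these counts, so they describe only the genes at hand. Large and small subunit genes were marked about equally in the EnPGC-1 list, 42 of 50 (84.0%) and 26 of 31 (83.9%). In the DMSO list the numbers were 23 of 50 (46.0%, 31.8 to 60.7) and 11 of 31 (35.5%, 19.2 to 54.6), with intervals that overlap widely. Of large subunit genes with EnPGC-1 intervals alone, Rpl3 encodes one of the largest proteins of that subunit, Rpl5 a protein that binds the 5S RNA, and Rpl22 a protein required in mice for development of T cells with alpha-beta receptors. Among the others were Rpl10l, Rpl13, Rpl14, Rpl15, Rpl19, Rpl23, Rpl27, Rpl28, Rpl31, Rpl37, Rpl37a, Rpl38, Rpl3l, Rpl4, Rpl41 and Rplp2. At Rpl19 a DMSO interval did lie within 1 kb of the start in the promoter table, which is inside the gene and away from both ends. Small subunit genes in that class included Rps2, Rps6, Rps7, Rps9, Rps10, Rps12, Rps14, Rps19, Rps20, Rps24, Rps26, Rps27a, Rps27l and Rpsa. Rps19 is the gene most often mutated in human Diamond-Blackfan anaemia, and Rps27a encodes a fusion of ubiquitin to a ribosomal protein. Both lists marked Rpl11, whose human product binds MDM2, and Rpl6, Rpl7a, Rpl8, Rpl9, Rpl10, Rpl10a, Rpl12, Rpl13a, Rpl18, Rpl21, Rpl26, Rpl27a, Rpl29, Rpl32, Rpl32l, Rpl34, Rpl35, Rpl36, Rpl36a, Rpl39 and Rplp0, 22 large subunit genes in all. They also marked 10 small subunit genes, among them Rps3, Rps13, Rps15, Rps15a, Rps16, Rps18, Rps21 and Rps25.

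**Figure D1:**
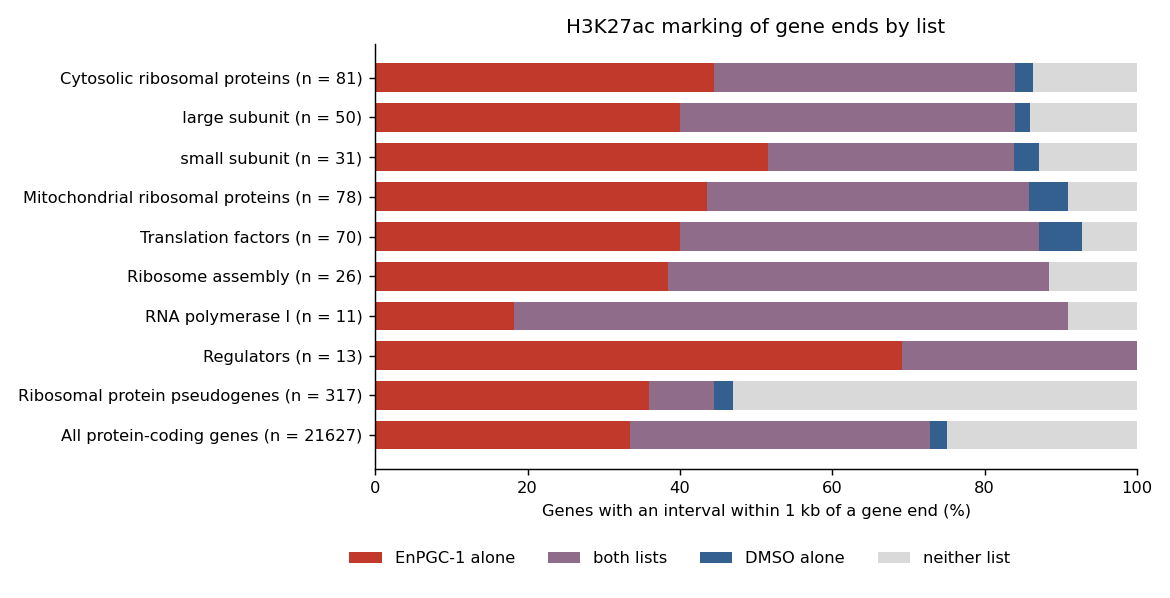
Share of genes (%, x axis) with an interval within 1 kb of a gene end in the EnPGC-1 list alone, both lists, the DMSO list alone or neither list, for each group of genes (y axis), 1 list per treatment. The EnPGC-1 list marks 84.0% of the 81 cytosolic ribosomal protein genes, 85.9% of the 78 mitochondrial ones and 72.8% of all genes, and most of the 317 pseudogenes are unmarked.

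The bases covered by intervals within 5 kb of a gene end were compared next, at the end of each gene where both lists together covered more. At ribosomal protein genes the median was 2014 bases with EnPGC-1 and 395 with DMSO. Over all protein-coding genes it was 1432 with EnPGC-1 and 366 with DMSO. The median difference was 1613 bases, against 995 over all genes, and it ran from -745 to 6285. Genes with EnPGC-1 intervals alone within 1 kb had differences from 298 to 5523 bases (median 2125), and genes marked by both lists from -745 to 6285 (median 1484.5). Genes marked by neither ranged from 0 to 1069. The EnPGC-1 list covered more bases at 73 of 81 genes, against 80% of all genes, and the DMSO list at 5, against 5.28% of all. In the remaining 3 both lists covered 0. With olfactory, vomeronasal and taste receptor genes left out, 84.0% of all genes had more EnPGC-1 bases and 5.38% more DMSO bases. The background medians were then 1604 bases with EnPGC-1, 406 with DMSO and 1118 for the difference. The middle of the distribution ran from 906 to 3176 bases between quartiles in the EnPGC-1 list and from 0 to 1061 in the DMSO list, so the lists overlap across genes. With equal numbers of intervals the median difference was 160 bases, against 0 over all genes, with more bases in the EnPGC-1 list at 42 genes and in the DMSO list at 28. The shares of all genes with more bases in each list are not given for that setting, so these counts describe only the genes at hand.

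**Figure D2:**
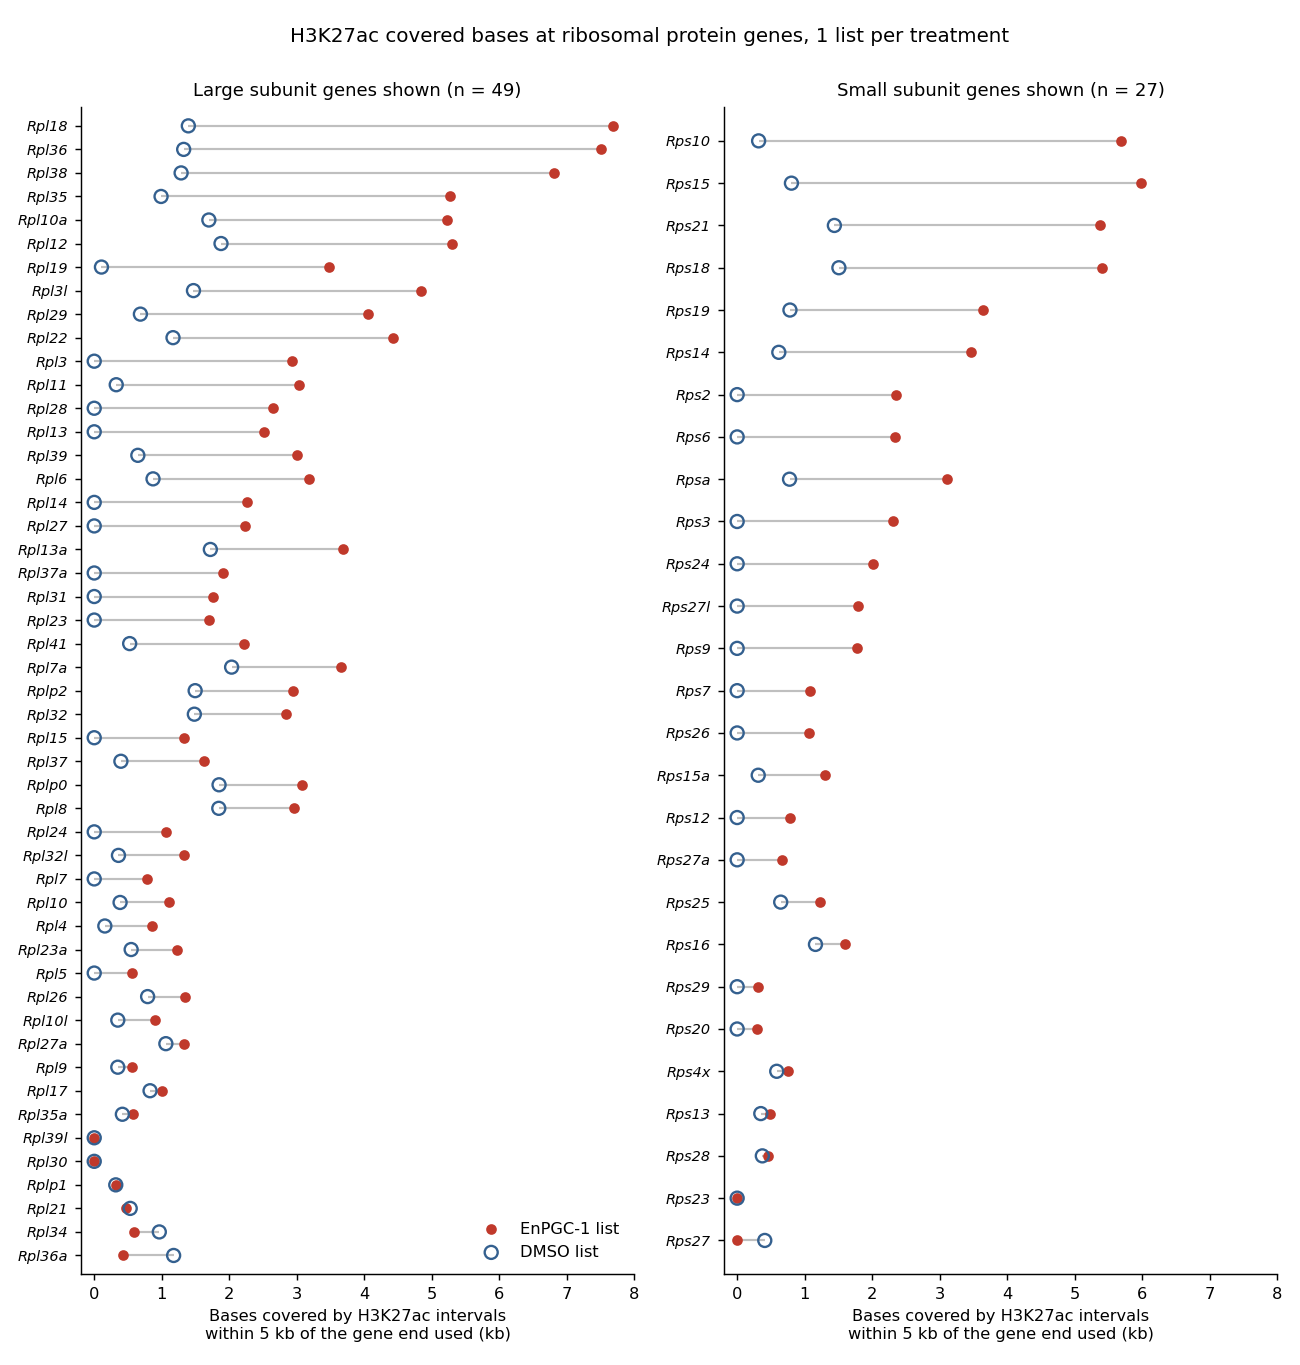
Bases covered by intervals within 5 kb of the gene end used (kb, x axis) at 49 large and 27 small subunit genes (y axis, ordered by difference), with filled points for the EnPGC-1 list, open rings for the DMSO list and a grey line joining them; there is 1 list per treatment and so no error bar. The EnPGC-1 point lies to the right at 68 of the 76 genes shown and the ring at 5, and at Rpl18 the points stand at 7679 bases with EnPGC-1 and 1394 with DMSO.

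Large differences were found at the large subunit genes Rpl18, Rpl36, Rpl38 and Rpl35. At Rpl18 (chromosome 7, 45715467 to 45720835) 7679 bases were covered with EnPGC-1 and 1394 with DMSO. At Rpl36 (chromosome 17, 56610094 to 56614246) the values were 7502 bases with EnPGC-1 and 1325 with DMSO. Both had broad EnPGC-1 intervals over or beside the gene end used. The one at Rpl18 ran over 5309 bp from 45719262 to 45724570 and overlapped 2 of 3 DMSO intervals there, while the one beside Rpl36 ran over 4246 bp from 56615176 to 56619421. An end of Fam83e lies within 1 kb of Rpl18 and ends of Micos13 and Lonp1 within 1 kb of Rpl36, so these intervals cannot be assigned to the ribosomal protein gene alone.

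Rpl38, whose product is needed in mice for translation of a subset of Hox mRNAs, has no other gene end within 1 kb. It lies on chromosome 11 from 114667818 to 114672333, and 6810 bases were covered with EnPGC-1 and 1287 with DMSO. Of its 3 EnPGC-1 intervals within 1 kb of the ends, one from 114667487 to 114669553 spans the start, and none of the 3 overlaps a DMSO interval. At Rpl35, 5272 bases were covered with EnPGC-1 and 990 with DMSO. Under equal numbers of intervals the differences were 6177 bases at Rpl36, 3963 at Rpl38, 3915 at Rpl18 and 1269 at Rpl35, so those at Rpl18 and Rpl35 moved by more than 1.5 times.

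Among small subunit genes the largest differences were at Rps10, Rps15 and Rps21. Rps10, which encodes a protein of the small subunit head, lies on chromosome 17 from 27630415 to 27635244, and 5685 bases were covered with EnPGC-1 and 318 with DMSO. EnPGC-1 intervals covered 3327 of the 4830 bp of the gene and DMSO intervals 318, and no other gene end lies within 1 kb. At Rps15, 5978 bases were covered with EnPGC-1 and 804 with DMSO, and at Rps21 5377 with EnPGC-1 and 1440 with DMSO. Those 2 genes turned with equal numbers of intervals, with differences of -976 bases at Rps15 and -1440 at Rps21, whereas Rps10 kept 4898. The gene end used was chosen again in that setting, and the DMSO bases at Rps15 were then 976, so its differences are from different ends. At Rps6, 2336 bases were covered with EnPGC-1 and 0 with DMSO, mostly by an interval of 1684 bp that spans the start from 86856690 to 86858373 on chromosome 4. At Rpsa, whose product is also known as a laminin receptor, the values were 3101 bases with EnPGC-1 and 776 with DMSO, and the difference of 2325 was 613 with equal numbers of intervals.

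The DMSO list covered more bases at 5 genes. At Rpl36a, on chromosome X, 431 bases were covered with EnPGC-1 and 1176 with DMSO. At Rps27 the values were 0 bases with EnPGC-1 and 409 with DMSO, and at Rpl34 589 with EnPGC-1 and 964 with DMSO. They were nearly equal at Rpl21, 478 with EnPGC-1 and 533 with DMSO, and at Rplp1, 318 with EnPGC-1 and 319 with DMSO. Rps27 is the clearest case by position: a DMSO interval of 409 bp, on chromosome 3 from 90213452 to 90213860, spans its start, and no EnPGC-1 interval was within 5 kb. Ends of Nup210l and Rab13 are within 1 kb of Rps27 as well. At Rplp1 the DMSO interval, from 61914593 to 61914911 on chromosome 9, lies just beyond the gene, and 1 EnPGC-1 interval lay outside 1 kb but within 5 kb. Within 10 kb the difference turned to 751 bases at Rpl21, 460 at Rpl34 and 703 at Rplp1, and within 2500 bp it was 41 at Rpl36a.

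Of the ribosomal stalk genes, whose products recruit elongation factors to the large subunit, each was in a different class. Rplp0 was marked in both lists, with 3076 bases covered with EnPGC-1 and 1849 with DMSO. Rplp2 had EnPGC-1 intervals alone, with 2942 bases with EnPGC-1 and 1495 with DMSO, and Rplp1 a DMSO interval alone. With equal numbers of intervals the differences were -511 bases at Rplp0 and -333 at Rplp2. The DMSO value at Rplp2 shows that a gene without an interval within 1 kb may still have covered bases within 5 kb. Of the 36 genes with EnPGC-1 intervals alone, 15 had DMSO bases within 5 kb of the end used.

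Neither list had an interval within 1 kb of 11 genes. These were Rpl7, Rpl17, Rpl23a, Rpl24, Rpl30, Rpl35a and Rpl39l of the large subunit and Rps4x, Rps23, Rps28 and Rps29 of the small subunit, all but Rpl39l known as genes of general expression. Rpl30, Rpl39l and Rps23 had 0 covered bases within 5 kb in both lists. Within 5 kb of Rpl24 the EnPGC-1 list covered 1069 bases and the DMSO list 0, and at Rpl7 783 with EnPGC-1 and 0 with DMSO. Within that distance of Rpl23a the values were 1228 bases with EnPGC-1 and 547 with DMSO, at Rpl17 1003 with EnPGC-1 and 827 with DMSO, and at Rpl35a 575 with EnPGC-1 and 417 with DMSO. The small subunit genes had little coverage as well, at Rps4x 746 with EnPGC-1 and 586 with DMSO, at Rps28 463 with EnPGC-1 and 373 with DMSO, and at Rps29 308 with EnPGC-1 and 0 with DMSO. With equal numbers of intervals the differences turned at Rpl23a (-547), Rpl17 (-529), Rps28 (-373) and Rpl35a (-123), while Rps29 had 0 bases in both lists. They also turned within 2500 bp at Rpl17 (-58) and Rpl35a (-209). No listed interval says only that none passed the caller's threshold there, since depth is unknown.

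With all intervals kept, paralogs with tissue-restricted expression did not stand apart from their general counterparts in one direction. At Rpl3l, known from heart and skeletal muscle, 4838 bases were covered with EnPGC-1 and 1470 with DMSO, against 2934 with EnPGC-1 and 0 with DMSO at Rpl3. At Rpl10l, known from testis, 906 bases were covered with EnPGC-1 and 349 with DMSO, against 1108 with EnPGC-1 and 383 with DMSO at Rpl10. At Rpl39l, also known from testis, both values were 0, against 3000 with EnPGC-1 and 646 with DMSO at Rpl39. With equal numbers of intervals the difference was 1039 bases at Rpl3l and 419 at Rpl3, and 557 at Rpl10l and 336 at Rpl10. It was 0 at Rpl39l and -334 at Rpl39, so in that setting the restricted paralog had the higher difference in each pair. Rps27l, a target of p53 in human cells, and Rps27 lay on opposite sides, with 1786 bases with EnPGC-1 and 0 with DMSO at Rps27l, against 0 with EnPGC-1 and 409 with DMSO at Rps27. An end of Msrb1 lies within 1 kb of Rpl3l, so coverage there cannot be assigned to Rpl3l alone.

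Where strand was known, the marks lay mainly at the start of the gene. The EnPGC-1 list had an interval within 1 kb of the start in 51 of 61 ribosomal protein genes (83.6%), against 66.1% of all 17273 genes with a start. The DMSO list had one in 23 (37.7%), against 31.7%. Within 1 kb of the opposite end the numbers were 30 (49.2%, against 45.1%) in the EnPGC-1 list and 8 (13.1%, against 19.9%) in the DMSO list. In short genes the windows of the ends overlap, so 1 interval can count at both, as the DMSO interval at Rps27 (982 bp) did. The median length was 3175 bp over the 81 genes and 17330 bp over all, so such overlap is not alike in the sets. Of the starts, 30 were marked with EnPGC-1 alone (37.6% of all starts) and 2 with DMSO alone (3.21%). Coverage peaked just downstream of the start, where the EnPGC-1 intervals covered 62.8% of ribosomal protein genes in the bin centred 350 bp downstream. Over all genes the highest bin had 42.6%, at 150 bp. The DMSO list peaked at 150 bp in both sets, with 21.3% in ribosomal protein genes and 15.0% in all genes.

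The coverage downstream of the start exceeded that upstream. Over the first 1 kb downstream, the mean was 45.8% with EnPGC-1 and 12.6% with DMSO, and over the 1 kb upstream 24.6% with EnPGC-1 and 6.96% with DMSO. Over all genes the means were 33.1% with EnPGC-1 and 10.6% with DMSO downstream, and 20.0% with EnPGC-1 and 6.42% with DMSO upstream. Of the 121 EnPGC-1 intervals within 1 kb of a ribosomal protein gene, 28 spanned a known start, and of 41 DMSO intervals 11 did.

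**Figure D3:**
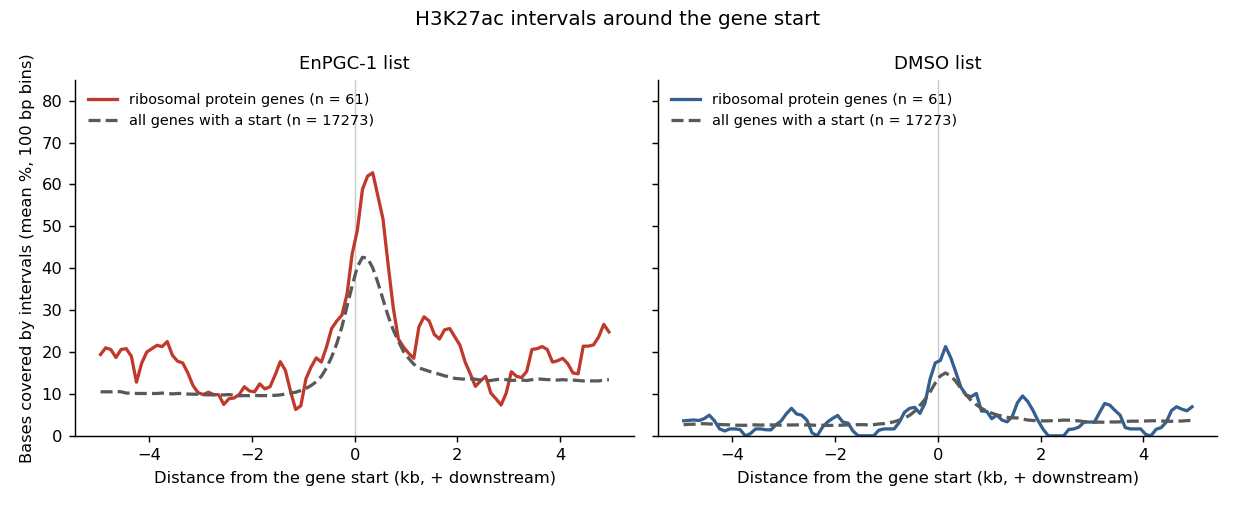
Mean share of bases covered by intervals (%, y axis) in 100 bp bins from 5 kb upstream to 5 kb downstream of the gene start (x axis, kb), with EnPGC-1 and with DMSO, for 61 ribosomal protein genes (solid line) and all 17273 genes with a start (dashed line). The ribosomal protein curve peaks at 62.8% with EnPGC-1 and 21.3% with DMSO, where all genes reach 42.6% with EnPGC-1 and 15.0% with DMSO.

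Other motifs were searched on both strands of the 300-base promoters. The core of the site bound by ETS factors such as GABPA, CCGGAAG, stood in 24 of 61 ribosomal protein promoters (39.3%), against 12.1% of all. It is in the 300-base promoters of Rpl38, Rps10, Rps6, Rpl39 and Rpl39l. The core of the YY1 site, AAGATGGC, stood in 5 (8.20%), against 3.23% of all, and Rps27 was 1 of them. The GC box GGGCGG stood in 35 (57.4%), against 46.9%. TATAAA stood in 11.5% against 13.4%, the E-box CACGTG in 8.20% against 8.01%, and the palindrome of the NRF1 site in 1.64% against 1.35%. CCGGAAG ends and AAGATGGC begins with AAG, so one stretch can hold both. GC content was much the same, with medians of 57.0% and 56.3%, whereas the median number of CpG was 21 in ribosomal protein promoters and 14 over all. Among genes with EnPGC-1 intervals alone, 14 of 29 promoters held CCGGAAG and 19 of 29 a pyrimidine tract. Among genes marked in both lists the numbers were 9 and 15 of 25, and among genes marked in neither 1 and 2 of 6. No motif shares over all genes of each class are given beside these counts, so they describe only the genes at hand. The classes count intervals at either gene end, whereas the motifs were read at the start.

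**Figure D4:**
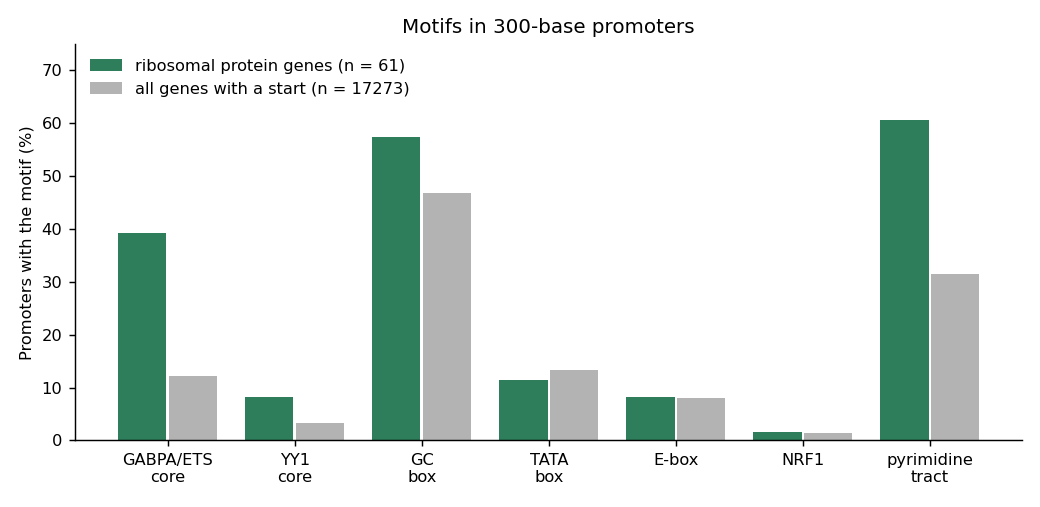
Share of promoters (%, y axis) that hold each motif (x axis) in 61 ribosomal protein genes and in all 17273 genes with a start; bars are shares with no error, since every promoter in the table was read. The ETS core (39.3% against 12.1%) and the pyrimidine tract (60.7% against 31.5%) differ most, while the E-box shares are close (8.20% against 8.01%).

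The intervals were close to those at all gene ends in width, overlap and score. EnPGC-1 intervals at ribosomal protein genes had a median width of 681 bp, against 661 bp over 25900 intervals at all gene ends, and DMSO intervals 533 bp, against 481 bp over 10379. Of the 121 EnPGC-1 intervals, 39 (32.2%) shared bases with DMSO intervals, against 34.9% at all gene ends, and 34 of the 41 DMSO intervals (82.9%) shared bases with EnPGC-1 intervals, against 81.0%. The score is the authors' own and is compared only within a list. The median score was 3.68 at ribosomal protein genes and 3.69 at all gene ends in the EnPGC-1 list, and 2.22 and 2.16 in the DMSO list. The highest score at a ribosomal protein gene was 12.8 with EnPGC-1 and 7.51 with DMSO, where the highest at any gene end were 244 with EnPGC-1 and 135 with DMSO.

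The highest-scoring EnPGC-1 intervals lay at Rps27l, with 12.8, at Rpl41, with 9.30, and at Rps13, with 8.98 (Rps18 tied with Rps13). The one at Rps27l ran from 66945548 to 66946783 on chromosome 9, spans the start and overlaps no DMSO interval. Rpl41 encodes one of the smallest proteins known in mammals. At Rps13 an EnPGC-1 interval of 493 bp overlapped a DMSO interval of 350 bp, and the covered bases within 5 kb were the same as those widths, so a high score went with a small difference there, which was -275 within 10 kb. In the DMSO list the highest scores were 7.51 at Rpl35, 4.31 at Rpl6 and 4.00 at Rpl21. The Rpl35 interval, from 39001532 to 39001970 on chromosome 2, lies at the end of the gene away from its start and overlaps an EnPGC-1 interval scored 5.58. Ends of other genes lie within 1 kb of several genes named here, Wdr38 at Rpl35, Zc3h10 at Rpl41, Cables2 at Rps21, Gla at Rpl36a, Pidd1 at Rplp2, Dnase1l1 at Rpl10, and B3galt4 and Vps52 at Rps18, so intervals there cannot be assigned to one gene. The same holds for Tlcd1 at Rpl23a, Zbtb11 at Rpl24, Iqcg at Rpl35a, and Kank3 and Ndufa7 at Rps28.

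Coverage near the genes went with coverage of the surrounding region. From 5 to 50 kb outside the gene, the median share of bases covered was 16.6% at ribosomal protein genes and 8.06% at all genes in the EnPGC-1 list, and 4.21% and 1.84% in the DMSO list. Ribosomal protein genes had a median of 4 other protein-coding genes within 50 kb, against 3 over all, and a median length of 3175 bp, against 17330 bp. Across the 81 genes, the EnPGC-1 bases within 5 kb and the share covered from 5 to 50 kb had a Spearman rho of 0.733, and across all 21627 genes 0.762. Both measures come from the same list, and genes are not independent samples. Of the 8 genes with the largest differences, 7 lay in regions above the median of the 81, with Rpl35 at 11.6% the exception, whereas 2 of the 11 genes marked in neither list did. The part of the region in the marks at the genes was not tested.

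Reads of near-identical copies and marks of neighbouring genes may touch these values, and their part was not tested. Per name, 62 of the 81 genes have pseudogenes in the RefSeq table, 317 in all, and how reads that match several places were counted is not given in the sources used here. Genes with and without such pseudogenes were marked in 83.9% and 84.2% of cases in the EnPGC-1 list and in 43.5% and 36.8% in the DMSO list. The pseudogene loci themselves were marked in 141 of 317 cases with EnPGC-1 and 35 with DMSO. Another protein-coding gene end lay within 1 kb of 29 genes. These were marked in 82.8% of cases with EnPGC-1 and 51.7% with DMSO, and the 52 others in 84.6% with EnPGC-1 and 36.5% with DMSO. The 29 genes that hold 58 small nucleolar RNA genes were marked in 89.7% of cases with EnPGC-1 and 44.8% with DMSO, and the 52 without in 80.8% with EnPGC-1 and 40.4% with DMSO.

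Other genes of protein synthesis were counted in the same way, beside 72.8% of all genes marked with EnPGC-1 and 41.6% with DMSO. No difference between these sets was tested. The 78 mitochondrial ribosomal protein genes were marked in 85.9% of cases with EnPGC-1 and 47.4% with DMSO, with 34 with EnPGC-1 alone and 4 with DMSO alone. Their median difference was 1610 bases, beside 1613 for the cytosolic set. At Mrpl54 7686 bases were covered with EnPGC-1 and 0 with DMSO, and at Mrps36 0 with EnPGC-1 and 549 with DMSO. Of 70 genes with symbols starting Eif1 to Eif6, Eef1 or Eef2, which include some kinases and methyltransferases of these factors, 61 were marked with EnPGC-1 and 37 with DMSO. Their median difference was 1108.5 bases. Eef2, the gene of the elongation factor that moves the ribosome along the mRNA, had 7889 bases with EnPGC-1 and 409 with DMSO, and Eif2a had 0 with EnPGC-1 and 647 with DMSO.

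Genes that build the ribosome form small sets. Of 26 assembly factors, 23 were marked with EnPGC-1 (exact interval 69.8 to 97.6%) and 13 with DMSO. Bop1, which acts in large subunit maturation, had 5998 bases with EnPGC-1 and 1395 with DMSO, and the nucleolin gene Ncl had 382 with EnPGC-1 and 769 with DMSO. Of 11 genes of RNA polymerase I and its factors, 10 were marked with EnPGC-1 (58.7 to 99.8%) and 8 with DMSO. The EnPGC-1 share of all genes, 72.8%, lies inside both intervals. All 13 regulators were marked with EnPGC-1 (75.3 to 100%) and 4 with DMSO, and this set holds Myc, Mtor, Larp1, Gabpa and Yy1. Their median difference was 2223 bases, from 541 at Mdm2 to 5584 at the S6 kinase gene Rps6kb2. The 6 further ribosomal protein genes whose symbols the rule does not take, among them Rps3a1, Rpl36al, Rpl22l1, Rpl7l1 and Fau, were all marked in the EnPGC-1 list, and all but Rpl7l1 in the DMSO list.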

How the data were processed

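The samples and groups are those of the labels. Per the submitters' processing notes, reads passed through steps that name Trimmomatic (0.38), Bowtie (1.1.2), Picard, MACS2 and ChIPseeker, on build mm10. For their parameters, the control and any pooling of replicates, the record is: not given in the sources used here. The authors deposited a score per interval, taken here as −log10 of a q-value because the lowest was 1.31 in both lists and −log10 of 0.05 is 1.30. Entries with the same interval were combined, with the highest score kept. Genes came from the RefSeq table of GRCm38.p6, and start and strand from its promoter table, at the most upstream start. Windows, overlaps and covered bases were computed with Python 3.11.15 and pandas 2.3.3 and tested on simulated data, and exact binomial intervals with scipy 1.17.1. The genes, lists, motifs and alternatives were chosen with earlier results of these data known. Named genes are those with the 8 largest and 5 most negative differences, up to 8 marked in the DMSO list alone or in neither, the 3 highest scores per list, paralogs, stalk genes, Rpsa and Rps6. Rps4l of that rule matched no gene, and of the other lists Polr1f and Trac did not. The other genes given with a role, of the genes marked by EnPGC-1 alone or by both lists, were picked for their known role after the values were seen. The values of some genes are not reported here by name, though the counts include them.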

Additional observations from a re-analysis of the deposited data

How the results depend on the processing

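No paired analysis was possible because each treatment has 1 peak list, and leaving out a replicate was not possible for the same reason. The share of ribosomal protein genes marked in the EnPGC-1 list was 84.0%, and it was 58.0% when each list kept its upper score range (its median or more), 42.0% with equal numbers of intervals and 91.4% within 2500 bp. The share marked in the DMSO list was 42.0%, 27.2% in the upper score range and 55.6% within 2500 bp. The share marked in the EnPGC-1 list alone was 44.4%, and 23.5% with equal numbers. The share marked in the DMSO list alone was 2.47%, and 11.1% in the upper score range and 23.5% with equal numbers. The median difference of 1613 bases was 750 in the upper score range, 160 with equal numbers, 906 within 2500 bp and 2926 within 10 kb. Over all genes, the share marked with EnPGC-1 was 52.5% in the upper score range, 40.5% with equal numbers and 79.4% within 2500 bp, and with DMSO 28.8%, 41.6% and 53.7%. With equal numbers 15.5% of all genes were marked with EnPGC-1 alone and 16.5% with DMSO alone, and 6.98% with DMSO alone in the upper score range. The median differences of all genes were 566, 0, 624 and 1714 bases in the order above. The settings differ in the number of intervals or bases that they admit, and the cause of these moves was not tested. Shares at the start only, within 500 bp, with 100 bp required, with 6 further genes or without the paralogs stayed within the counting intervals of the main shares.

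Among named genes the sign of the difference turned with equal numbers of intervals at Rpl17 (-529), Rpl23a (-547), Rpl35a (-123), Rpl39 (-334), Rplp0 (-511), Rplp2 (-333), Rps28 (-373), Rps15 (-976) and Rps21 (-1440), and the difference at Rpsa was 613. It also turned in the upper score range at Rpl23a (-547), within 2500 bp at Rpl17 (-58), Rpl35a (-209) and Rpl36a (41), and within 10 kb at Rpl21 (751), Rpl34 (460), Rplp1 (703) and Rps13 (-275). The setting with equal numbers drops EnPGC-1 intervals scored under 4.21 and no DMSO interval. In each setting that took both gene ends, the end used for covered bases was chosen again. Depth is unknown, so it cannot be told how far it sets the length of each list.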
